A study of Homo sapiens with 18 samples.

Results

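The genes described here encode the proteins of the mitochondrial ribosome and carry the symbols MRPL or MRPS followed by a number. The symbol rule, with pseudogenes left out, found 77 genes among 19740 named genes, and 89 of the 42405 probes on the array belonged to them. By symbol, 49 were genes of the large subunit and 28 of the small subunit. All 77 passed the filter on dim probes, and 12 of them had more than 1 probe.

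The study sorted EpCAM+ cells, taken as tumor-initiating cells, from cultures of the human hepatocellular carcinoma lines Huh1 and Huh7. Treatment lasted 48 hours, with disulfiram (DSF, 0.1 µM) or 5-fluorouracil (5-FU, 1 µM), beside controls. The question was how the 2 drugs change the transcriptome of these cells. For the arrays, the paper does not state whether the sort came before or after the treatment. DSF is a drug against alcoholism that blocks aldehyde dehydrogenase, and 5-FU is a pyrimidine analog used in chemotherapy. Each of the 6 groups of line and treatment had 3 one-color arrays, 18 in all. The methods list copper chloride among the reagents used with DSF, and what the controls received in its place is not given in the sources used here. Both lines are established lines, so each result stands for 1 line and not for hepatocellular carcinoma as a whole. Each array holds RNA pooled over sorted cells, in which fewer cells of a type and less RNA per cell cannot be told apart.

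The mitochondrial ribosome translates only the messages of mitochondrial DNA, all of which encode subunits of the respiratory chain. Its RNAs come from mitochondrial DNA, but its proteins are encoded in the nucleus, made by cytosolic ribosomes and imported. It carries more protein and less RNA than its bacterial relatives, and several members of the family exist only in mitochondria. The products of MRPS30 and MRPS18A sit in the large subunit despite their names.

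Values below are log2 processed signals minus the 75th percentile of their array, given for the brightest probe of a gene, so they rank samples within a gene but not genes against each other. A gene was called higher or lower where the adjusted p of the limma fit over all 29894 probes tested was under 0.05. Between 59.9% and 71.1% of probes were well above background on an array, and no spot was saturated. All arrays of Huh1 lay on slide 1 except DSF array 3, which lay on slide 2 with the Huh7 controls, the Huh7 5-FU arrays and Huh7 DSF array 1. Huh7 DSF arrays 2 and 3 had slide 3 to themselves and had the highest shares of probes above background. Each slide had its own scan, so slide and scan cannot be told apart. Relative to 6 bright spike-in probes, the 75th percentile was -3.94 to -4.10 on the control arrays and -2.85 to -3.29 on the 5-FU arrays. On the Huh1 DSF arrays it was -4.07 and -4.02 on slide 1 and -3.78 on slide 2. On the Huh7 DSF arrays it was -3.96 on slide 2 and -4.305 and -4.308 on slide 3. A change given here is therefore a change relative to the other probes of the array. EPCAM and 8 liver or epithelial genes (AFP, GPC3, ALB, APOA1, TF, KRT8, KRT18 and HNF4A) were well above background on all 18 arrays. Of 10 markers of blood, endothelial and stromal cells, COL3A1 was above background on 1 array, PDGFRB on 5, CD3E on 6, COL1A1 on 11 and VWF on 13, while PTPRC, CD14, PECAM1, CDH5 and LUM were above it on all 18. The log2 of their summed level lay between 1.78 and 1.83 on Huh1 control, 1.77 and 1.79 on Huh1 5-FU and 1.36 and 1.42 on Huh1 DSF arrays. For Huh7 the ranges were 0.51 to 0.60 in controls, 2.0 to 2.01 with 5-FU and 0.22 to 0.29 with DSF. LUM took part in the rise with 5-FU in Huh7, with means of -1.23 in controls and 1.49 with 5-FU. EPCAM, the gene of the sort, had means of 2.62 in controls, 3.01 with 5-FU and 1.96 with DSF in Huh1, and of 5.49, 5.74 and 5.00 in Huh7. The part of these genes in the results was not tested.

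Promoters of these genes are shown first because several members share them with a neighbor. RefSeq windows of GRCh38.p14 (250 bases before to 50 after the start) were matched for 69 of the 77 genes. No window was matched for MRPL2, MRPL10, MRPL13, MRPL15, MRPL21, MRPL23, MRPL35 and MRPS28. The letters CCGGAAG, the core of ETS family sites, stood on either strand in 29 of the 69 windows (42.0%), against 14.2% of the windows of 15843 protein-coding genes. AAGATGG, the core of YY1 sites, stood in 23 (33.3%) against 6.4%. CCAAT was found in 20 (29.0%) against 36.4%, the NRF1 core CATGCGC in 7 (10.1%) against 5.9%, the E-box CACGTG in 7 (10.1%) against 8.8%, and TCGCGAGA in 2 (2.9%) against 1.8%. None of these motifs contains another, and a match describes letters, not binding. For 18 of the 69 genes (26.1%), against 10.2% of all protein-coding genes with a window, another protein-coding gene started within 1000 bases on the opposite strand.

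The stretches below end at the base before the gene's start and are written 5′ to 3′ on the gene's own strand, with any of these motifs in capitals. MRPS11 (chr15:88467588-88467707, plus strand) and MRPL46 (chr15:88467389-88467508, minus strand) are shown because they start 320 bases apart, head to head. MRPL49 (chr11:65122135-65122182, plus strand) is shown up to the start of FAU, a cytosolic ribosomal protein gene 49 bases away, and MRPL57 (chr13:21176553-21176657, plus strand) up to that of SKA3. MRPL40 (chr22:19432425-19432544, plus strand) and MRPL36 (chr5:1799838-1799957, minus strand) moved in opposite directions in the lines with DSF. The MRPL40 stretch holds an ETS core, and the MRPL36 stretch an E-box and, read on the other strand, a YY1 core. The capitals of MRPL57 are overlapping matches of the letters TCGCGAGA on both strands. MRPL24 (chr1:156741089-156741208, minus strand), with the largest fall under DSF in Huh1, holds none of the motifs in this stretch.
MRPS11: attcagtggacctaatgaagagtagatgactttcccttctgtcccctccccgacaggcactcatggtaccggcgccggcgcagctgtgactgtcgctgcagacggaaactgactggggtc
MRPL46: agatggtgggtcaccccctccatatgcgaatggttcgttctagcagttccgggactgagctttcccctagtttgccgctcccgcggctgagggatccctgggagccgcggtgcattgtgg
MRPL49: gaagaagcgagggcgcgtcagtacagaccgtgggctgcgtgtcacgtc
MRPL57: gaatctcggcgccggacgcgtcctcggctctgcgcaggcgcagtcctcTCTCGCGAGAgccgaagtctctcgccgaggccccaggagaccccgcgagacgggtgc
MRPL40: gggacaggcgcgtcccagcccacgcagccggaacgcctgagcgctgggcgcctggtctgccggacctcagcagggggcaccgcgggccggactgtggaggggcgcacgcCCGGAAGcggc
MRPL36: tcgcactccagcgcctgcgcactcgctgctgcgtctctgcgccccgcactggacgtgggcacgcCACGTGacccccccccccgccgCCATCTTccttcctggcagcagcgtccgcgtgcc
MRPL24: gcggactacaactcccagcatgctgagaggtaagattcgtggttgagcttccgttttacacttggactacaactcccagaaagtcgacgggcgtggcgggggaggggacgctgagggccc

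In Huh1, more of these genes were called lower than higher with DSF. Of the 77, 33 were called lower (42.9%), against 20.3% of all probes, and 9 were called higher (11.7%), against 23.9%. The median change was -0.13, with 0.00 over all probes, and 53 of 77 genes lay below the median of all probes, a count that no scaling constant of an array can alter. The large subunit gave 22 of 49 lower and 5 higher, and the small subunit 11 of 28 lower and 4 higher. The largest falls were those of MRPL24, MRPL23, MRPL38 and MRPL40, all of the large subunit.

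MRPL24 encodes a conserved protein of the large subunit. Its values were 4.11, 4.12 and 4.07 on the Huh1 control arrays and 3.52, 3.40 and 3.41 on the DSF arrays. All DSF arrays lay below all control arrays, at a log2 change of -0.66 ± 0.09 (SE; 1.58-fold; adjusted p = 3.25e-05). MRPL40 stood at 2.10, 2.18 and 2.10 in controls and 1.61, 1.64 and 1.70 with DSF, again without overlap, at -0.48 ± 0.05 (adjusted p = 2.55e-06). MRPL23 fell by 0.54 and MRPL38 by 0.52 on the log2 scale, and in neither did the groups overlap.

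Against this direction, MRPS18C, which encodes 1 of the forms of the bacterial S18 protein kept in mitochondria, rose the most. It stood at 4.29, 4.20 and 4.13 in Huh1 controls and 4.74, 4.69 and 4.70 with DSF. No DSF array reached down to a control array, at 0.50 ± 0.07 (1.42-fold; adjusted p = 3.1e-05). MRPS30, MRPL10, whose product lies at the base of the ribosomal stalk, and MRPS6 rose by 0.37, 0.33 and 0.31. With only the DSF arrays on the slide of the controls, 33 genes were called lower and 7 higher. Scaled on the spike-in probes, 2 were called lower and 6 higher, at a median change of 0.01 with 0.13 over all probes, and scaled on the median of each array, 47 were called lower and 1 higher, at -0.30 with -0.17 over all probes.

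In Huh7, more of these genes were called higher than lower with DSF. Of the 77, 36 were called higher (46.8%), against 27.3% of all probes, and 6 were called lower (7.8%), against 19.4%. The median change was 0.14, with 0.08 over all probes, and 44 of 77 genes lay above the median of all probes. Both subunits took part, with 23 of 49 large and 13 of 28 small subunit genes called higher and 3 of each called lower. Relative to the mean of the controls, the median over the 77 genes was 0.24 on the DSF array that shared a slide with the controls, and 0.06 and 0.08 on the DSF arrays of slide 3. Without slide 3, 38 genes were called higher and none (0) lower, at a median change of 0.24, with 0.03 over all probes. Without the array on slide 2, 30 were called higher and 10 lower, against 29.8% and 20.4% of all probes, and the median of 0.07 lay below the 0.09 over all probes. More genes were called higher than lower on either set of arrays, but the 6 falls were called only with slide 3 in the fit. Scaled on the spike-in probes, 7 genes were called higher and 3 lower, at a median of -0.03 with -0.09 over all probes, and after quantile normalization 26 were called higher and 11 lower.

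**Figure D1:**
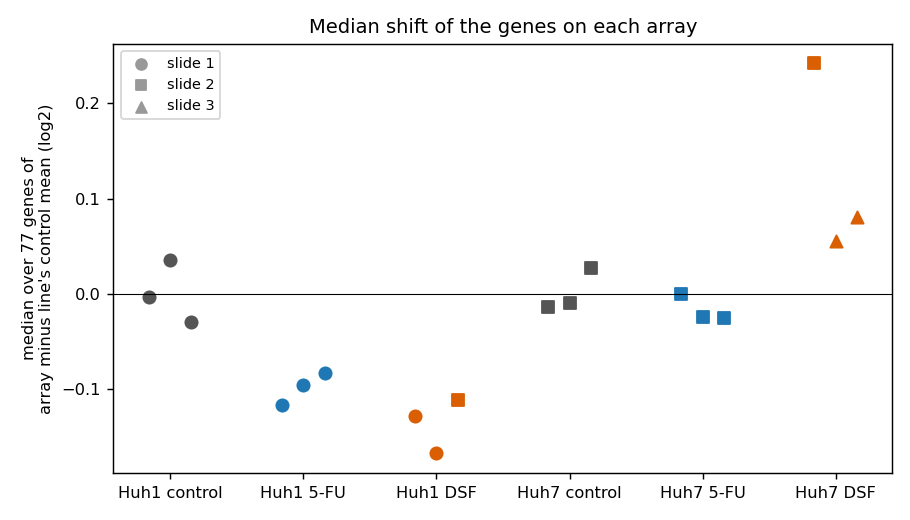
Median, over the 77 mitochondrial ribosomal protein genes, of the difference between each array and the mean of its line's control arrays (log2), with 1 point an array, color for the treatment and symbol for the slide. The 3 Huh1 DSF arrays lay between -0.17 and -0.11, and the Huh7 DSF arrays at 0.24 on slide 2 and 0.06 and 0.08 on slide 3.

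MRPL1, whose product forms the L1 stalk near the exit site of tRNA, rose the most in Huh7. It stood at -1.27, -1.38 and -1.48 in Huh7 controls and -0.41, -0.48 and -0.50 with DSF. The DSF arrays of both slides lay together and well above the controls, at 0.91 ± 0.09 (1.88-fold; adjusted p = 1.8e-06). MRPS11, a protein of the small subunit platform, stood at 2.88, 2.90 and 2.94 in controls and at 3.64, 3.53 and 3.53 with DSF, a rise of 0.66 ± 0.05 (adjusted p = 4.5e-07). Its neighbor MRPL46 stood at 2.37, 2.36 and 2.37 in controls and 2.99, 2.99 and 3.00 with DSF. MRPL46 had the tightest arrays of these 3 genes and rose by 0.63 ± 0.06 (adjusted p = 7.98e-07). MRPS2 rose by 0.63 as well (adjusted p = 9.24e-06).

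The largest falls in Huh7 were smaller. MRPS27, which encodes a small subunit protein with pentatricopeptide repeats, stood at 3.41, 3.43 and 3.46 in controls and 3.29, 2.93 and 3.02 with DSF. The array on the controls' slide was the nearest to them, and the change was -0.35 ± 0.08 (adjusted p = 0.00204) over all arrays but -0.15 (adjusted p = 0.194) without slide 3. MRPL28 (-0.28), MRPL42 (-0.24) and MRPS5 (-0.20) were likewise called lower, and without slide 3 their changes were -0.10, -0.08 and -0.13 with adjusted p of 0.429, 0.616 and 0.337.

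The DSF change itself differed between the lines. In the contrast of the Huh7 change minus the Huh1 change, 43 of 77 genes were called higher, against 21.1% of all probes, and 1 was called lower, against 19.2%. The median difference was 0.29, with 0.05 over all probes, and 62 of 77 genes lay above the median of all probes. Without slide 3, 45 were called higher and 0 lower, and without Huh7 DSF array 1, 38 and 5, at a median of 0.22. After quantile normalization, 29 were called higher and 4 lower, at a median of 0.16 with 0.07 over all probes. Scaled on the spike-in probes, 2 were called higher and 1 lower, at a median of -0.02 with -0.25 over all probes. The calls of this contrast thus depended on the scaling to the other probes of an array. The level relative to the spike-in probes itself differed between slides among the DSF arrays, as given above, and the part of slide was not tested. Of the genes called in each line, 12 were called lower in Huh1 and higher in Huh7 (MRPL12, MRPL20, MRPL34, MRPL36, MRPL40, MRPL46, MRPL51, MRPL52, MRPS7, MRPS12, MRPS33 and MRPS34), and none (0) the other way round. Of all probes, 3.78% were called the first way and 3.19% the second. MRPL10 was the gene called lower in the contrast, at -0.44 ± 0.13 (adjusted p = 0.0167).

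**Figure D2:**
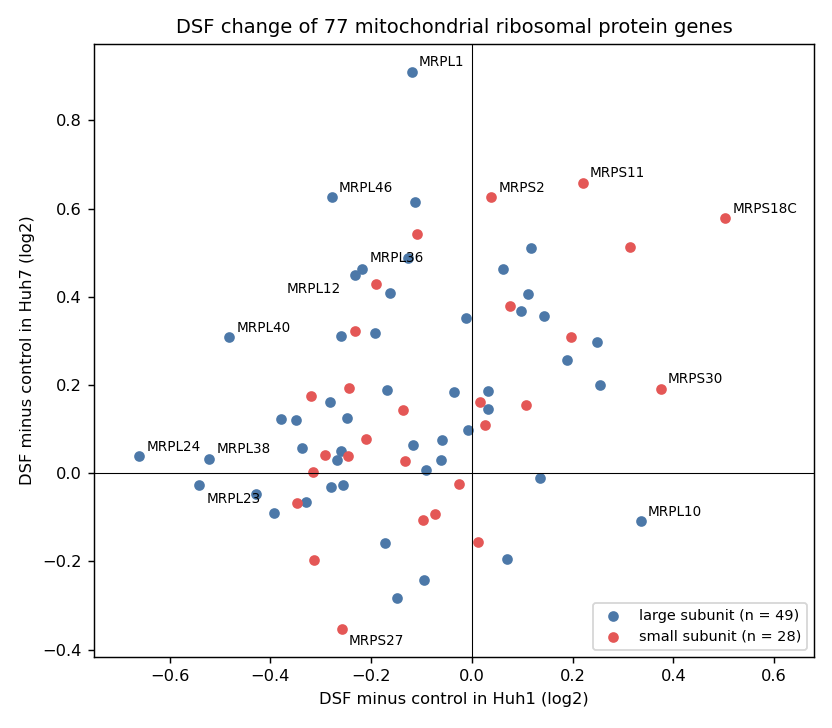
Change with DSF in Huh1 (horizontal axis, log2) against that in Huh7 (vertical axis, log2), with 1 point for each of 77 genes, colored by subunit. The upper left part, lower in Huh1 and higher in Huh7, holds MRPL1, MRPL46, MRPL40, MRPL12 and MRPL36, while MRPS18C and MRPS11 lie above 0 on both axes.

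MRPL46 showed the split most clearly. Its Huh1 arrays went from 2.84, 2.99 and 2.89 in controls to 2.64, 2.62 and 2.62 with DSF, while its Huh7 arrays rose as given above. The difference of changes was 0.90 ± 0.08 (adjusted p = 1.33e-06). MRPL40 differed by 0.79 ± 0.07 (adjusted p = 1.36e-06), since it fell in Huh1 and went from 2.54, 2.53 and 2.59 to 2.87, 2.85 and 2.87 in Huh7. MRPL12, a stalk protein that is also known to bind the mitochondrial RNA polymerase, stood at 4.02, 4.03 and 3.95 in Huh1 controls against 3.75, 3.75 and 3.81 with DSF. In Huh7 it stood at 3.29, 3.28 and 3.30 in controls against 3.78, 3.69 and 3.75 with DSF. The lines lay apart without drug and close together with it, and the difference of changes was 0.68 ± 0.07 (adjusted p = 5.28e-06). MRPL36, MRPS12 and MRPL20 differed by 0.68, 0.62 and 0.57, and MRPL1, which was not called in Huh1, by 1.03 ± 0.12 (adjusted p = 2.28e-05).

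A few genes moved alike in both lines under DSF, when 9.92% of all probes were called higher in both and 7.62% lower in both. MRPL32, MRPL44, MRPL54, MRPS6, MRPS11 and MRPS18C were called higher in each line, and MRPS5 and MRPS27 lower in each, the latter pair subject to the limit of slide 3 given above. MRPS6 stood at 3.83, 3.81 and 3.80 in Huh1 controls and 4.15, 4.11 and 4.13 with DSF, and at 3.96, 3.96 and 4.01 in Huh7 controls and 4.58, 4.46 and 4.43 with DSF. No DSF array overlapped a control array in either line, and the changes were 0.31 and 0.51.

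With 5-FU, genes were called in both directions. In Huh1, 16 of 77 were called higher, against 22.2% of all probes, and 33 lower, against 26.0%, at a median change of -0.11 with -0.03 over all probes. In Huh7, 27 were called higher, against 27.3% of all probes, and 28 lower, against 29.7%, at a median of -0.02 with -0.05 over all probes. The counts were 20.8% and 42.9% of the 77 genes in Huh1, and 35.1% and 36.4% in Huh7. Control and 5-FU arrays lay on the same slide in each line. Scaled on the spike-in probes, 70 genes in Huh1 and 72 in Huh7 were called higher and 0 lower, with medians of 0.71 and 0.97 beside 0.79 and 0.94 over all probes, so the falls given here are falls relative to the other probes. After quantile normalization, the split in Huh1 turned to 27 called higher and 21 lower, at a median of 0.04.

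**Figure D3:**
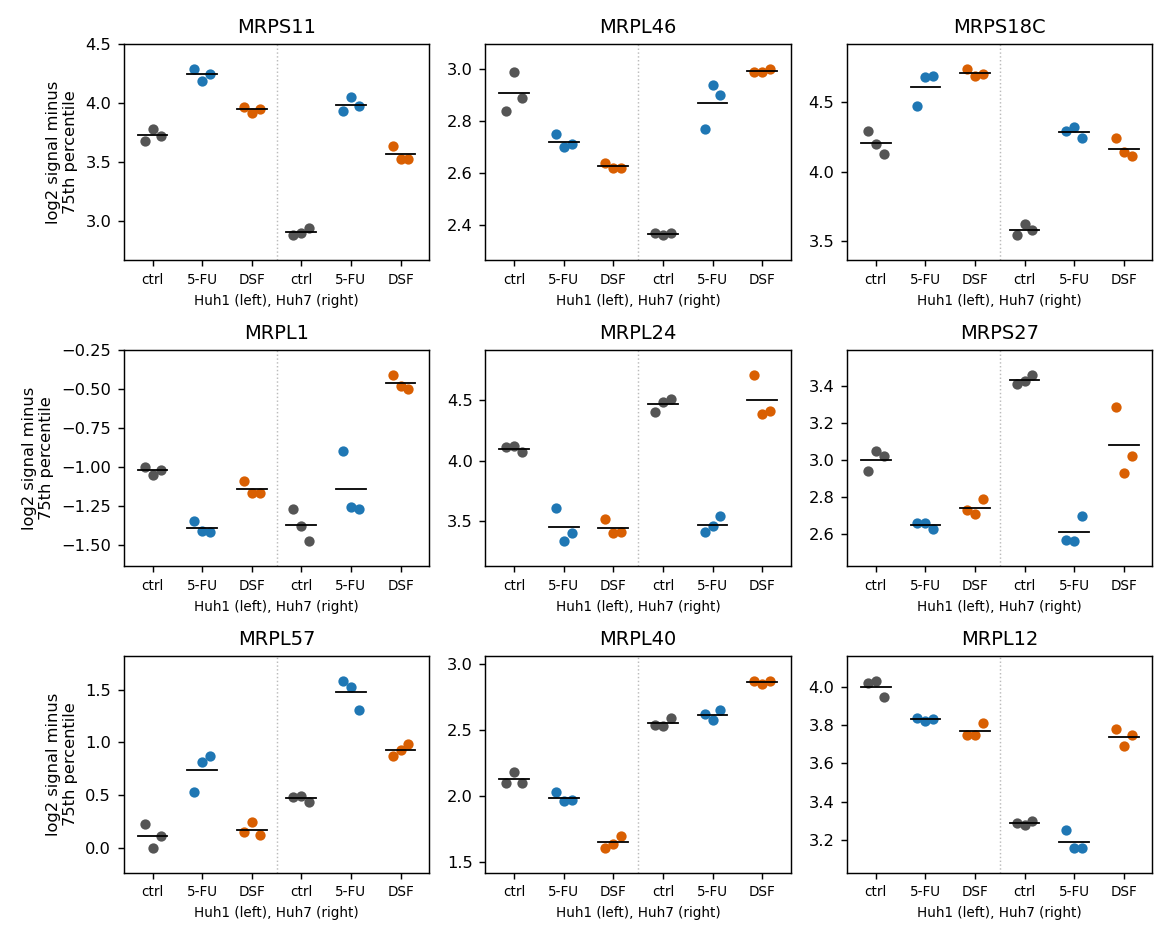
Values of 9 genes on the 18 arrays (vertical axis, log2 processed signal minus the 75th percentile of the array), with 1 point an array, a line at each group mean, Huh1 to the left and Huh7 to the right of the dotted line. MRPS11 and MRPS18C lay above the controls with both drugs in both lines, MRPL24 fell from 4.40 to 4.51 in Huh7 controls to 3.41 to 3.54 with 5-FU but not with DSF, and MRPL46 fell in Huh1 and rose in Huh7.

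MRPS11 rose the most in Huh7. It stood at 3.93, 4.05 and 3.98 with 5-FU against the control values given above, a rise of 1.08 ± 0.05 (2.11-fold; adjusted p = 1.59e-09), and in Huh1 it went from 3.68, 3.78 and 3.72 to 4.29, 4.19 and 4.25, a rise of 0.52 (adjusted p = 4.05e-06). MRPL57, a large subunit protein found only in mitochondria, stood at 0.48, 0.49 and 0.43 in Huh7 controls and 1.58, 1.53 and 1.31 with 5-FU. Its rise was 1.01 ± 0.09 in Huh7 and 0.63 ± 0.09 in Huh1, where the controls stood at 0.22, 0.00 and 0.11 and the 5-FU arrays at 0.53, 0.81 and 0.87. In neither line did its groups overlap. MRPS33 rose by 0.77 in Huh7 (adjusted p = 6.55e-08) with 0.12 in Huh1, where it was not called (adjusted p = 0.116). MRPS18C rose by 0.41 in Huh1 and 0.70 in Huh7, and MRPS15 by 0.49 and 0.27.

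MRPL24 led the falls in Huh7. It went from 4.40, 4.49 and 4.51 to 3.41, 3.46 and 3.54, at -1.0 ± 0.09 (2.00-fold; adjusted p = 2.85e-07), and in Huh1 to 3.61, 3.33 and 3.40, at -0.65. MRPL39 went from 2.50, 2.58 and 2.59 to 1.63, 1.75 and 1.51 in Huh7, a change of -0.93 ± 0.09, with -0.61 in Huh1. The 5-FU arrays of both genes lay below all control arrays in each line. MRPL38 had the largest fall in Huh1, from 1.77, 1.82 and 1.68 to 0.81, 0.62 and 0.64, at -1.07 ± 0.08 (2.10-fold; adjusted p = 1.59e-07). In Huh7 its arrays overlapped, with a change of -0.01 (adjusted p = 0.935), and the difference between the lines was 1.06 ± 0.11 (adjusted p = 6.66e-06). MRPS28 fell by 0.89 in Huh1 and 0.61 in Huh7, MRPS5 by 0.56 and 0.72, and MRPS27 by 0.36 and 0.82. MRPS25 was called lower in both lines as well, but its Huh1 values spread widely, from -0.64 to 0.12 in controls and from -1.77 to -0.78 with 5-FU, and its change of -0.85 had an SE of 0.23.

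With 5-FU, 12 genes were called higher in both lines (MRPL34, MRPL41, MRPL49, MRPL57, MRPS6, MRPS10, MRPS11, MRPS12, MRPS15, MRPS18A, MRPS18C and MRPS23) and 21 lower in both, while 4 (MRPL1, MRPL20, MRPL46 and MRPL51) were called lower in Huh1 and higher in Huh7, and 0 the reverse. Of all probes, 13.2% were called higher in both lines, 15.9% lower in both, 3.05% lower in Huh1 and higher in Huh7, and 2.14% the reverse. In the contrast of the 5-FU changes, 25 genes were called higher in Huh7, against 18.8% of all probes, and 11 lower, against 17.8%. The median difference was 0.09 with -0.02 over all probes, and the split was 19 to 19 after quantile normalization and 20 to 2 with scaling on the median. MRPL46 differed the most among the 4, by 0.69 ± 0.08 (adjusted p = 1.52e-05), as it went from 2.84, 2.99 and 2.89 to 2.75, 2.70 and 2.71 in Huh1 and from 2.37, 2.36 and 2.37 to 2.77, 2.94 and 2.90 in Huh7. MRPL1, MRPL20 and MRPL51 differed by 0.60, 0.49 and 0.37. For MRPL1 in Huh7, 1 of the 5-FU arrays (-0.90) stood above the others (-1.26 and -1.27), which lay at the level of the highest control array (-1.27).

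Cytosolic ribosomal protein genes gave a different picture with 5-FU. Of 77 such genes, 76 were called lower in Huh1 and 75 in Huh7, with 0 and 1 called higher, and the medians were -0.49 and -0.75. RPL3 fell the most, by 1.29 and 1.92. RPL27A was the gene called higher in Huh7, at 1.58. Among 84 nuclear genes of respiratory chain subunits, 58 in Huh1 were called lower and 2 higher, and the counts for Huh7 were 46 and 11. Of all probes, 26.0% were called lower and 22.2% higher in Huh1, and 29.7% and 27.3% in Huh7. The mitochondrial ribosomal genes thus ranged from -1.07 to 0.63 in Huh1 and from -1.0 to 1.08 in Huh7. The cytosolic ones lay on 1 side, relative to the other probes of the array, with a single exception in each line. On the spike-in probes, the medians over all probes were 0.79 and 0.94, and the cytosolic genes are not reported on that scale. No test of the difference between these families was made.

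**Figure D4:**
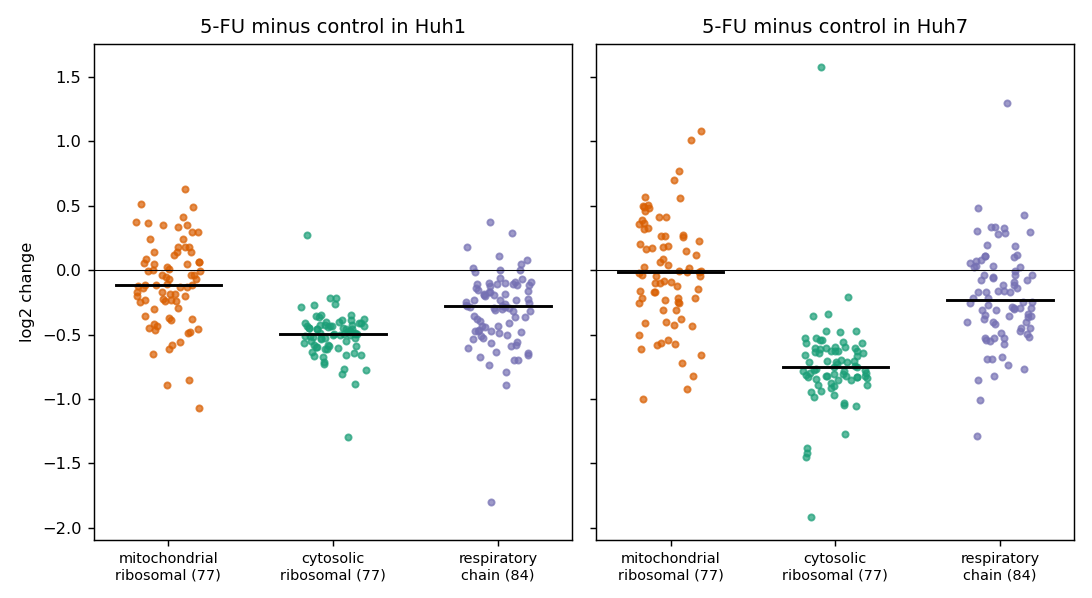
Change with 5-FU (vertical axis, log2) of each gene of 3 families in Huh1 (left) and Huh7 (right), with 1 point a gene and a line at the family's median, points being spread sideways at random. The medians of the mitochondrial ribosomal genes were -0.11 and -0.02, those of the cytosolic ribosomal genes -0.49 and -0.75, and those of the respiratory chain -0.28 and -0.23.

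With DSF, Huh1 gave 3 cytosolic ribosomal genes called lower (3.9%) and 1 called higher (1.3%), against 20.3% and 23.9% of all probes. Huh7 gave 2 (2.6%) and 13 (16.9%), against 19.4% and 27.3%. Without Huh7 DSF array 1, 3 of the 77 were called lower and 26 higher, against 20.4% and 29.8% of all probes. The median of these genes in Huh7 was 0.07, with 0.004 without slide 3 and 0.10 without array 1. Of the respiratory chain genes, 49 in Huh1 were called lower (58.3%) and 2 higher (2.4%), against 20.3% and 23.9% of all probes. In Huh7, 20 were called lower, a share of 23.8% near the 19.4% of all probes, and 7 higher (8.3%), against 27.3%. Their median in Huh7 was -0.07, and -0.04 without slide 3. COX7A1, a subunit of cytochrome c oxidase known from muscle, stood out among the respiratory chain genes with a rise of 3.07 in Huh1 (adjusted p = 3.6e-05).

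Set against each other, the drugs gave calls in both lines, as they did over all probes. The comparisons of each drug with control share their control arrays, so DSF was compared with 5-FU directly. In Huh1, 18 of 77 genes were higher with DSF (23.4%), against 28.7% of all probes, and 21 lower (27.3%), against 20.6%. In Huh7, 39 were higher with DSF (50.6%), against 35.6% of all probes, and 12 lower (15.6%), against 25.0%. The median difference was -0.02 in the Huh1 line and 0.18 in the Huh7 line, beside 0.08 and 0.12 over all probes. Scaled on the spike-in probes, 0 genes were higher with DSF in either line and 71 and 74 were lower, beside medians over all probes of -0.61 and -1.04. After quantile normalization, the Huh1 counts were 12 higher and 33 lower and the Huh7 counts 29 and 23.

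MRPL24 and MRPL39 differed the most in Huh7, by 1.04 ± 0.09 and 1.02 ± 0.08. MRPL39 stood at 2.87, 2.55 and 2.55 with DSF and 1.63, 1.75 and 1.51 with 5-FU, and MRPL35 at 1.30, 1.65 and 1.59 with DSF and 0.57, 0.59 and 0.61 with 5-FU. All DSF arrays lay above all 5-FU arrays for each. MRPL35 had been called higher with DSF and lower with 5-FU in that line, at 0.49 and -0.43. In Huh1, MRPS25, MRPS28 and MRPL39 were higher with DSF by 0.75, 0.64 and 0.60, and MRPL57 was lower by 0.57. MRPL39 was not called with DSF in either line (adjusted p = 0.952 and 0.371), so its difference lay in the fall with 5-FU.

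Without drug, more of these genes were called lower than higher in Huh7 relative to Huh1. Between the control groups, 16 of 77 were higher in Huh7 (20.8%), against 34.5% of all probes. In the other direction, 44 were lower (57.1%), against 36.2%, and the median was -0.24 with -0.05 over all probes. After quantile normalization, 20 were higher and 38 lower at a median of -0.072 with -0.065 over all probes, and with scaling on the spike-in probes 11 were higher and 29 lower. The control groups lay on different slides, and Huh1 DSF array 3 was the only array of its line on the slide of the Huh7 controls. With slide as a block, 10 were called higher and 39 lower. MRPL15 differed the most, with 4.39, 4.28 and 4.21 in Huh1 and 1.57, 1.55 and 1.68 in Huh7, at -2.69 ± 0.07 (6.47-fold; adjusted p = 1.09e-13). On Huh1 DSF array 3 it stood at 4.21, beside 4.20 and 4.12 on the Huh1 DSF arrays of slide 1. MRPL9, MRPL36 and MRPL41 were lower in Huh7 by -1.48, -1.40 and -1.25. In the other direction, MRPL11, a protein of the stalk base, stood at 4.19, 4.17 and 4.06 in Huh1 and 5.59, 5.58 and 5.59 in Huh7, a difference of 1.45 ± 0.06. MRPS31, MRPS26 and MRPS28 were higher in Huh7 by 0.86, 0.77 and 0.54. For these 8 genes the control arrays of the lines did not overlap.

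Across the comparisons of a drug with control, MRPS6, MRPS11 and MRPS18C were called higher in all 4 and MRPS5 and MRPS27 lower in all 4 (with DSF in Huh7 only with slide 3 in the fit), and none (0) of the 77 was called in no comparison. These 4 comparisons share controls within a line. How many of all probes followed the same patterns was not counted, so they are not read as a trait of the family. Some members are known for roles outside the ribosome. MRPS30, also called PDCD9 and first described as a pro-apoptotic protein, stood at 2.42, 2.39 and 2.43 in Huh1 controls and 2.86, 2.73 and 2.76 with DSF, a rise of 0.37 ± 0.09 (adjusted p = 0.00264). In Huh7 its DSF arrays stood at 2.86 on slide 2 and 2.47 and 2.47 on slide 3 against controls of 2.39 to 2.45, at 0.19 (adjusted p = 0.0822), and at 0.45 (adjusted p = 0.000893) without slide 3. It was not called with 5-FU, at -0.04 and 0.08. MRPL41, reported to bind BCL2, rose with 5-FU by 0.14 in Huh1 and 0.16 in Huh7 and was not called with DSF (-0.06 and 0.08). MRPL58, a peptidyl-tRNA hydrolase built into the large subunit that frees stalled ribosomes, rose with DSF in Huh7 by 0.37 ± 0.07 (adjusted p = 0.000478), with 0.10 in Huh1 (adjusted p = 0.257), and was not called with 5-FU (-0.12 and 0.02).

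The lists of partner genes below are set against all probes, of which 23.9% were called higher and 20.3% lower with DSF in Huh1, and 27.3% and 19.4% in Huh7. Of 5 mitoribosome proteins with other symbols, DAP3, a GTP-binding protein of the small subunit, was called higher with DSF in both lines (0.15 and 0.48), and PTCD3 lower with 5-FU in both (-0.43 and -0.57). Among 27 genes of mitoribosome assembly and rRNA modification, DSF in Huh1 gave 13 called lower and 1 called higher, while DSF in Huh7 gave 18 called higher and 5 called lower, a lower share (18.5%) near that of all probes. In the contrast of the lines 16 of the 27 were called higher in Huh7 (59.3%) and 0 lower, against 21.1% and 19.2% of all probes. MTG1, a GTPase of large subunit assembly, went by -0.26 in Huh1 and 0.86 in Huh7, and DDX28, an assembly helicase, by -0.30 and 0.63. Without slide 3, DSF in Huh7 gave 16 of the 27 higher and 2 lower.

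Among 17 mitochondrial translation factors, DSF in Huh1 gave 8 called lower and 0 called higher, and DSF in Huh7 gave 3 and 6. In the contrast of the lines, 10 of the 17 were called higher (58.8%) and 0 lower, against 21.1% and 19.2% of all probes. GFM1, the elongation factor of translocation, changed by -0.35 in Huh1 and 0.35 in Huh7. Among 11 genes of mitochondrial DNA transcription and replication, 7 were called higher and 0 lower with DSF in Huh7, against 1 and 3 in Huh1, where the 27.3% lower lay near the share of all probes. TFAM, which packages mitochondrial DNA, changed by -0.16 and 0.37, and the helicase TWNK rose by 0.92 in Huh7. With 5-FU, 10 of the 17 translation factors were called lower and 3 higher in Huh7, against 29.7% and 27.3% of all probes. In Huh1, 8 were called lower and 3 higher, against 26.0% and 22.2% of all probes.

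**Figure D5:**
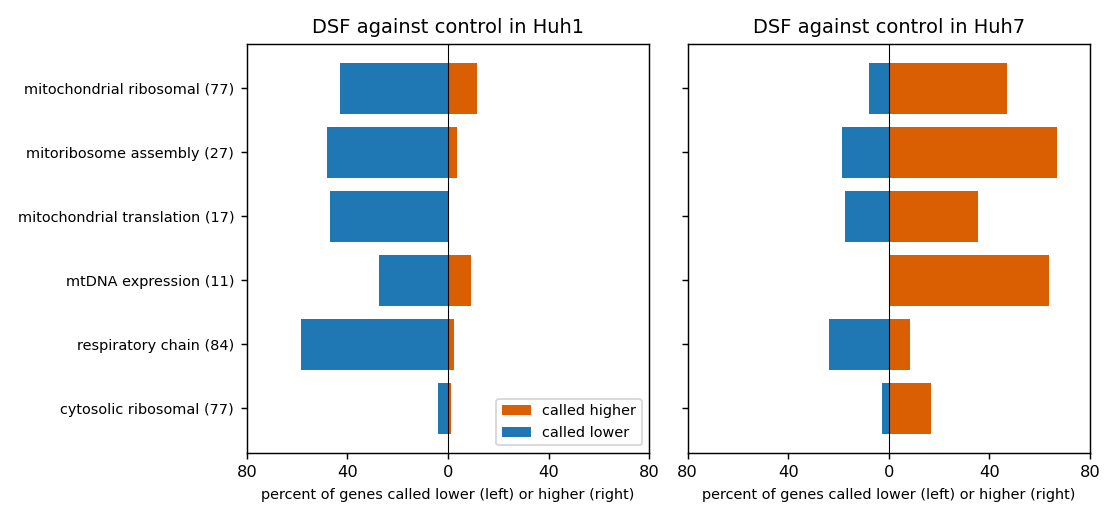
Percent of the genes of each list called lower (left, blue) or higher (right, orange) with DSF against control in Huh1 and in Huh7, with the number of genes tested in brackets. Of the mitochondrial ribosomal genes 42.9% were called lower in Huh1 and 46.8% higher in Huh7, and of the cytosolic ribosomal genes 3.9% and 16.9%.

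Among 12 regulators of nuclear genes for mitochondrial proteins, DSF in Huh1 gave 4 called higher and 2 called lower, and DSF in Huh7 gave 9 and 2. Both shares in Huh1 (33.3% and 16.7%) and the lower share in Huh7 lay near those of all probes. PPARGC1B, a coactivator of mitochondrial biogenesis, changed by -0.85 in Huh1 and 0.49 in Huh7. GABPB2, a subunit of the ETS factor GABP, rose with both drugs in both lines, by 0.65 and 0.87 with DSF and 0.82 and 0.57 with 5-FU. GABPA, its DNA-binding subunit, was called lower with 5-FU in both lines (-0.33 and -0.51) and with DSF in Huh7 (-0.40). Its Huh7 DSF arrays stood at 0.46 on slide 2 and 0.09 and 0.15 on slide 3 against controls of 0.59 to 0.66, and without slide 3 the change was -0.17 (adjusted p = 0.279). Of 12 chaperones and proteases of the mitochondrial matrix and inner membrane, 8 were called lower and 2 higher with 5-FU in Huh1. In Huh7, 7 were called lower and 2 higher with 5-FU. Of all probes, 26.0% were called lower and 22.2% higher with 5-FU in Huh1, and 29.7% and 27.3% in Huh7. With DSF, 5 of the 12 were called lower and 2 higher in Huh1, and 1 lower and 6 higher in Huh7. HSPE1, the small chaperonin, changed with DSF by -0.44 and 0.25.

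Members with an ETS core in their promoter window and members without one gave similar counts under DSF. In Huh1, 13 of the 29 with the core and 17 of the 40 without it were called lower, and in Huh7, 15 and 18 were called higher. For the YY1 core, 13 of 23 members with it and 17 of 46 without it were called lower with DSF in Huh1, and 11 and 22 were called higher with DSF in Huh7. With 5-FU, 5 of the 23 were called higher and 7 lower in Huh1, beside 9 and 21 of the 46, and 11 and 5 in Huh7, beside 15 and 19. These counts are descriptions, and no test was made.

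The head-to-head pair MRPS11 and MRPL46 moved apart in Huh1 and together in Huh7. With DSF, MRPS11 rose and MRPL46 fell in Huh1 (0.22 and -0.28), and both rose in Huh7 (0.66 and 0.63). With 5-FU they changed by 0.52 and -0.19 in Huh1 and by 1.08 and 0.50 in Huh7. MRPL57 and SKA3, a gene of chromosome segregation, were both called higher with 5-FU, by 0.63 and 0.69 in Huh1 and by 1.01 and 1.25 in Huh7. MRPL49 was called higher with 5-FU in both lines (0.33 and 0.57), while FAU, 49 bases away, was called in neither (-0.11 and -0.05; adjusted p = 0.114 and 0.484). Over the 17 pairs, both genes of a pair were called in 7 or 8 pairs of a comparison, in the same direction in 5 to 7 of them and in opposite directions in 1 or 2. Other pairs of genes were not counted, so these counts have no background and are descriptions only.

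For genes with 2 probes, the second probe of MRPL43 was called against the brightest one in Huh1 and in the contrast of the DSF changes. In Huh1 the dim probe rose by 0.73 with DSF and 0.56 with 5-FU while the brightest fell by 0.26 and 0.24. In the contrast of Huh7 minus Huh1 with DSF, the dim probe was called lower at -0.795 (limma, adjusted p = 0.0162). The brightest was called higher there at 0.312. The dim probe was well above background on all Huh1 arrays and on 2 of the 3 Huh7 control arrays. No other second probe was called against the brightest one in any comparison. Some second probes were called where the brightest was not and had the other sign. With DSF in Huh1, the second probe of MRPS16 was called lower at -0.45, beside 0.20 for the brightest. With DSF in Huh7, that of MRPL19 was called lower at -0.35, beside 0.12. With 5-FU in Huh7, the second probe of MRPS16 was called higher at 0.40, beside -0.02. It was called higher in the contrast of the 5-FU changes too, at 0.51 beside -0.04. For DSF against 5-FU in Huh1 it was called lower, at -0.34 beside 0.17. Between the controls, the MRPS16 probes differed in size, at -1.335 and -0.123.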

How the data were processed

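RNA (100 ng) of sorted EpCAM+ cells was labeled by the authors and hybridized to 18 one-color Agilent arrays, 3 in each of 6 groups. The methods describe 3 independent experiments, so p-values measure the spread between these arrays, whose number limits the precision. The deposited scanner files hold intensity values per spot, made by the authors with Feature Extraction 10.7.1.1 per the file headers, with background subtracted and no scaling between arrays. The deposited series table holds intensity ratios normalized by the authors to the 75th percentile. It lay within 0.05 log2 of the values used here after a constant on each array.

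Unflagged spots of a probe were averaged, the log2 signal was set against the array's 75th percentile, and the test took in probes that exceeded background throughout some group (29894 of 42405), while 78 without an unflagged spot were dropped. One limma 3.58.1 model (R 4.3.3) over the 6 groups gave each contrast, with Benjamini-Hochberg adjustment over all probes tested. Tables and plots were made in Python 3.11.15 (matplotlib 3.10.9, numpy 2.4.6, pandas 2.3.3). RefSeq accessions named 25771 of 27134 probes, and the brightest probe stood for a gene. The fit was tested on simulated data.

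Genes named with values were the 4 largest changes in each direction and comparison, those called alike or oppositely in both lines, and 5 with known second roles. Levels of probes were not ranked. The members, gene lists and promoter motifs were chosen with earlier results of these data known, and the divergent neighbors, COX7A1, RPL3, RPL27A and the pathway genes given with values after theirs were seen. Alternatives covered background, scaling, filter, probe, slide, replicate number, samples, call rule and each array left out. The columns for the planned normexp correction are not used here, and normexp with an offset of 50 was run on the median signals instead. Protein features were not analysed here. One of the cell type markers is not reported here.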

Additional observations from a re-analysis of the deposited data

Results flagged for a closer look

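The changes differed between the lines by a test of the difference itself (limma contrast, adjusted over all probes) in 44 of the 77 genes with DSF and 36 with 5-FU. With DSF, 43 were higher and 1 lower in Huh7, against 21.1% and 19.2% of all probes. With 5-FU, 25 were higher and 11 lower, against 18.8% and 17.8%. Among genes called in opposite directions in the lines, the Huh7 change with DSF exceeded the Huh1 change by 0.90 in MRPL46, 0.79 in MRPL40, 0.68 in MRPL36, 0.68 in MRPL12, 0.62 in MRPS12 and 0.57 in MRPL20. With 5-FU it did so by 0.69 in MRPL46, 0.60 in MRPL1, 0.49 in MRPL20 and 0.37 in MRPL51. The DSF count fell to 3 with scaling on spike-in probes, and the 5-FU count to 11. The cause was not tested.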

How the results depend on the processing

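Most results moved with the scaling, and the cause was not tested. On the spike-in probes, DSF in Huh1 gave 2 genes lower (median 0.006), DSF in Huh7 7 higher and 3 lower (-0.031), 5-FU in Huh1 70 higher and 0 lower (0.711), 5-FU in Huh7 72 and 0 (0.968), and DSF against 5-FU 0 higher with 71 lower in Huh1 and 74 in Huh7. The differences between the lines gave 3 and 11 calls. With scaling on the median, DSF in Huh1 gave 1 higher (-0.30), DSF in Huh7 2 lower, DSF against 5-FU in Huh1 5 higher, and the 5-FU difference between the lines 22 calls. After quantile normalization, DSF in Huh7 gave 11 lower (0.058), 5-FU in Huh1 27 higher and 21 lower (0.036), and DSF against 5-FU 33 lower in Huh1 and 23 in Huh7. With slide as a fixed block, or without slide 3 (chosen after seeing the data), DSF in Huh7 gave 0 lower (0.242), and with the arrays of the comparison only 3 lower. Leaving out 1 array gave 2 to 10 lower for DSF in Huh7 (2 without control 3 or DSF 2, 10 without DSF 1), medians of 0.071 to 0.174, and 11 to 16 higher for DSF against 5-FU in Huh1, the fewest without DSF 1.

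Of 1658 alternative values of 86 named results, 1565 kept their direction and side of the threshold, 65 lost the call, 10 gained one and 18 reversed, all on the spike-in probes. These were, for 5-FU, MRPL12 (0.652 in Huh1 and 0.887 in Huh7), MRPL24 (0.173), MRPL39 (0.213 and 0.061), MRPL58 (0.708), MRPS25 (0.327), MRPS27 (0.468 and 0.162), MRPS28 (0.374), MRPS30 (0.785) and MRPS5 (0.269). For DSF against 5-FU they were MRPL24 (-0.123), MRPL35 (-0.241), MRPL39 (-0.088 and -0.139), MRPS2 (-0.386) and MRPS28 (-0.051). Arrays with the same replicate number did not deviate together (r of -0.093 to 0.103 over 45 pairs, 1 above 0.1). With the replicate number as a block, the counts higher and lower were 8 and 32 (Huh1) and 33 and 5 (Huh7) for DSF, 16 and 31 and 27 and 27 for 5-FU, 17 and 17 and 37 and 12 for DSF against 5-FU, and the differences between the lines 41 and 1 with DSF and 22 and 11 with 5-FU.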
